A study of Drosophila melanogaster with 18 samples.

Results

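Among the transcripts of the fly's hearing organ are those of the genes that build the cuticle around it. Described here are the cuticle protein genes, taken as every row of the deposited table whose gene name starts with Cpr and a digit, Lcp and a digit, Ccp84A, Twdl, Edg or Pcp, or is *Acp1*. The rule used names alone and found 119 of the 16624 genes in the table. Of these, 93 reached 10 scaled reads in at least 2 libraries and were tested, among 14663 genes tested in all, and 26 stayed below that minimum. A scaled read is a read counted in a gene and divided by a size factor of its library.

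RNA came from the second antennal segment of virgin Canton-S flies, a wild-type strain. This segment houses Johnston's Organ (JO), the chordotonal organ with which flies hear. Males were taken at 1, 5, 10, 25 and 50 days of age and females at 1, 5, 25 and 50 days, and each age and sex had 2 libraries. No group carried a transgene or a treatment, the flies behind each library were pooled in a number that the sources used here do not give, and the labels do not say whether the 2 libraries of a group came from separate cohorts, so p-values measure only the spread between these libraries.

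Each library held between 5815182 and 14315927 reads in genes, and the males of day 25, CT11 and CT12, held the fewest. The channel genes *nompC*, *iav* and *nan* of JO neurons and the general neuronal genes *elav* and *nSyb* were all measured. Together they stood between 5062 and 8684 scaled reads in every library. Of this *nSyb*, which is not particular to JO neurons, had a mean of 3749. Genes of other tissues were also present. The summed level of 7 muscle genes was 50544 to 82403 at day 1 and 3687 to 9934 at all later ages. That of 8 retina genes ran from 911 to 115611 across the libraries. Transcripts of both sexes were high in 2 libraries of day 50. The male library CT16 held 25444 scaled reads of *Yp1*, a yolk protein gene of females, against 1944 in the other male library, CT15. Male libraries of younger ages held 94.3 to 184, so CT15 was also above them. CT16 also held 21999 of *roX1*, an RNA of male dosage compensation, against 24812 in CT15. The female library CT18 held 16418 of *roX1*, against 1118 in the other female library, and 19045 of *Yp1*, against 24388. Leading changes and most counts of calls that rest on day 50 are therefore given with and without CT16 and CT18. CT15 was kept in both. In whole segments, fewer cells of a type and less RNA per cell cannot be told apart.

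Insect cuticle is a composite of chitin fibres and proteins that epidermal cells secrete in layers. Most members of the Cpr, Lcp, Ccp84A, Edg and Pcp groups carry the Rebers-Riddiford domain, through which cuticle proteins bind chitin, and are named for the stage or the chromosome band where they were found. The Tweedle (Twdl) proteins are a separate family of chitin-associated proteins, named after a mutant with a squat body. *Acp1* is named as an adult cuticle protein. Flies emerge with a soft and pale cuticle that is then tanned, and endocuticle is added beneath it during the early days of adult life.

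The families differed in size and in how much of each was measured. Of 66 Cpr genes, 61 were tested, and 33 had a mean of 50 or more scaled reads over the 18 libraries. Of 26 Twdl genes, 15 were tested and 5 reached that mean. Of 15 Lcp genes, 9 were tested and 1 reached it. The Ccp84A genes (4 tested of 7), the Edg genes (2 of 3) and *Pcp* all had a mean below it, and *Acp1* was above it. Members below the minimum were *TwdlP*, *TwdlBeta*, *TwdlM*, *TwdlJ*, *TwdlE*, *TwdlQ*, *TwdlV*, *TwdlL*, *TwdlR*, *TwdlN*, *TwdlS*, *Lcp1*, *Lcp3*, *Lcp4*, *Lcp9*, *Lcp65Aa*, *Lcp65Ac*, *Ccp84Ac*, *Ccp84Af*, *Ccp84Ag*, *Edg78E*, *Cpr5C*, *Cpr64Ab*, *Cpr67Fa1*, *Cpr67Fa2* and *Cpr78E*. They include the larval genes *Lcp1*, *Lcp3* and *Lcp4*, which are named for larval cuticle.

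A few genes supplied most of the transcript. *Cpr65Au* (3L from 6131242 to 6132109 of dm6, minus strand) was the highest member at every age, between 14733 and 60608 scaled reads. Per kilobase of exon its mean was 60120, followed by *Cpr67B* at 9497, *Acp1* at 1813 and *Cpr62Bb* at 1582. The sum over all members was 64696 ± 7566 (SD, n = 4) at day 1, 60884 ± 6262 (n = 4) at day 5, 76797 ± 10415 (n = 2) in the males of day 10, 43586 ± 5089 (n = 4) at day 25 and 38294 ± 10997 (n = 4) at day 50. It was thus highest in the males of day 10, an age with no females. At day 50 it was 42465 (30628 and 54301) without CT16 and CT18. Without *Cpr65Au* and *Cpr67B* the sum was 30964 ± 7377 at day 1 and 8656 ± 522 at day 5, and it stood between 6756 and 10356 in every library from day 5 onwards. The remaining members thus had their highest summed level at day 1, and the 4 libraries of day 1 lay above all others.

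Members reached their highest mean at different ages. Of the 40 with a mean of 50 or more, 14 were highest at day 1, 6 at day 5, 17 at day 25 and 3 at day 50, over the 4 ages that both sexes share. The means of day 50 include CT16 and CT18.

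**Figure D1:**
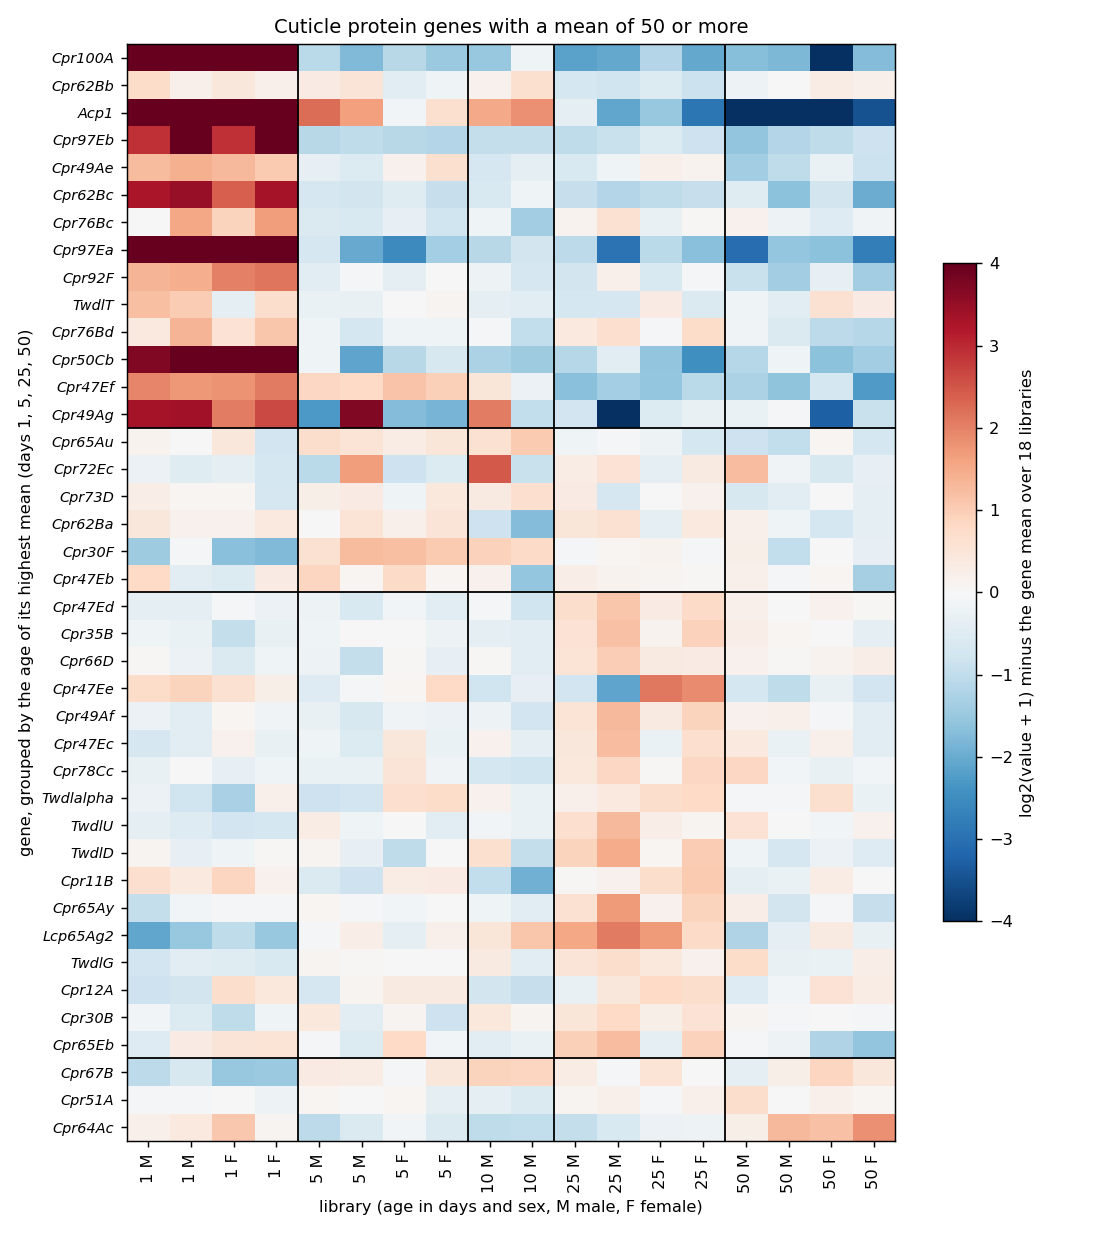
Level of the 40 members with a mean of 50 or more (rows) in the 18 libraries (columns, age in days and sex), as log2(value + 1) minus the gene's mean, with colours cut at 4 in either direction; horizontal lines part genes by the age of their highest mean. The 14 genes of the top block were highest at day 1, and the 17 of the third block at day 25.

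How did the members change between emergence and day 5? Between day 1 and day 5, 19 of 93 members fell and 9 rose, by limma with a Benjamini-Hochberg adjusted p below 0.1 over all tested genes and a fold change above 1.5. Among all tested genes 8.78% fell and 4.69% rose. The median change of the members was -0.03 on the log2 scale, against 0.03 for all genes. The falls were found in 15 Cpr genes and in *Acp1*, *Lcp65Ag1*, *Ccp84Ab* and *TwdlT*. In males alone 13 members fell (5.75% of all genes did) and in females alone 13 (6.25% of all genes), and 10 were called in both sexes, as were 4.04% of all genes.

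*Cpr97Ea* showed the largest fall. Its scaled reads at day 1 were 664 and 1872 in males and 772 and 2060 in females, and at day 5 they were 10.4, 3.55, 2.13 and 6.11. The 4 libraries of day 1 lay above all later ones, with a log2 change of -7.67 ± 0.58 (SE, limma adjusted p = 1.5e-07). Its neighbour *Cpr97Eb* lies 1.9 kb away on the same strand of 3R (from 27089704 to 27091130, with *Cpr97Ea* from 27083130 to 27087778). *Cpr97Eb* held 2784, 7370, 2760 and 6036 at day 1 and 163 to 179 at day 5, a change of -4.65 ± 0.26, and it kept a level of 121 to 248 in every later library. The 2 neighbours were thus highest together at day 1 and settled at different levels.

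*Cpr100A* (3R from 30867521 to 30869184) held 4352 and 10671 in males and 4653 and 9697 in females of day 1. At day 5 it held 49.3, 30.1, 48.0 and 37.4. It was the second member by level at day 1 and stood at or below 93.0 in every library after it. The log2 change was -7.35 ± 0.46 (limma adjusted p = 2.1e-08).

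Other Cpr genes fell less far. *Cpr50Cb* went from a mean of 293 ± 81 (SD, n = 4) to 7.80 ± 4.36, *Cpr62Bc* from 1178 ± 340 to 79.7 ± 10.5, *Cpr92F* from 548 ± 145 to 137 ± 21 and *Cpr76Bc* from 594 ± 268 to 179 ± 26. *Cpr49Ae*, an abundant member, went from 1858 ± 193 to 800 ± 310. In each of these 5 genes the libraries of day 1 and day 5 did not overlap. *Ccp84Ab*, of a cluster on 3R, was low throughout, with 15.1 to 46.3 scaled reads at day 1 and 2.13 to 8.66 at day 5, a change of -2.73 ± 0.70.

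*Acp1* (2L from 7740562 to 7741537, minus strand) fell at every step. It held 6571 and 6675 in males and 4081 and 6469 in females of day 1, and 1068, 720, 212 and 360 at day 5. Males of day 10 held 648 and 817. At day 25 it held 174 and 53.1 in males and 79.4 and 30.2 in females, and at day 50 the values were 2.45, 10.5, 3.25 and 19.5. No library of an age overlapped with those of the next age shared by both sexes. The log2 changes were -3.56 ± 0.49, -2.82 ± 0.49 and -3.19 ± 0.49 for the 3 intervals, and -4.19 for the last without CT16 and CT18. *Acp1* was the 1 member called lower in all 3 intervals.

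Fewer members rose between day 1 and day 5. *Cpr67B* (3L from 9404797 to 9406174), the second member over all libraries, held 4173 and 5557 in males and 2987 and 3045 in females of day 1, and 8106 to 11779 at day 5. Its change was 1.42 ± 0.18 (limma adjusted p = 3.5e-05), and from day 5 it stayed between 6711 and 15864. *Cpr30F* rose from 25.8 ± 17.8 to 113 ± 22 (SD, n = 4). Among the Tweedle genes *TwdlF*, *TwdlW* and *TwdlY* rose, by 2.21 ± 0.43, 1.64 ± 0.41 and 1.31 ± 0.36 on the log2 scale. All 3 were low, with means of 17.7, 8.14 and 27.6 at day 1. Leaving out 1 library ended the call of *TwdlY* in 1 of 18 fits. Among the falls it ended that of *Cpr47Ef* in 8, of *TwdlT* in 7, of *Cpr11B* in 5, of *Cpr49Ag* in 2 and of *Cpr64Ac* in 1.

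**Figure D2:**
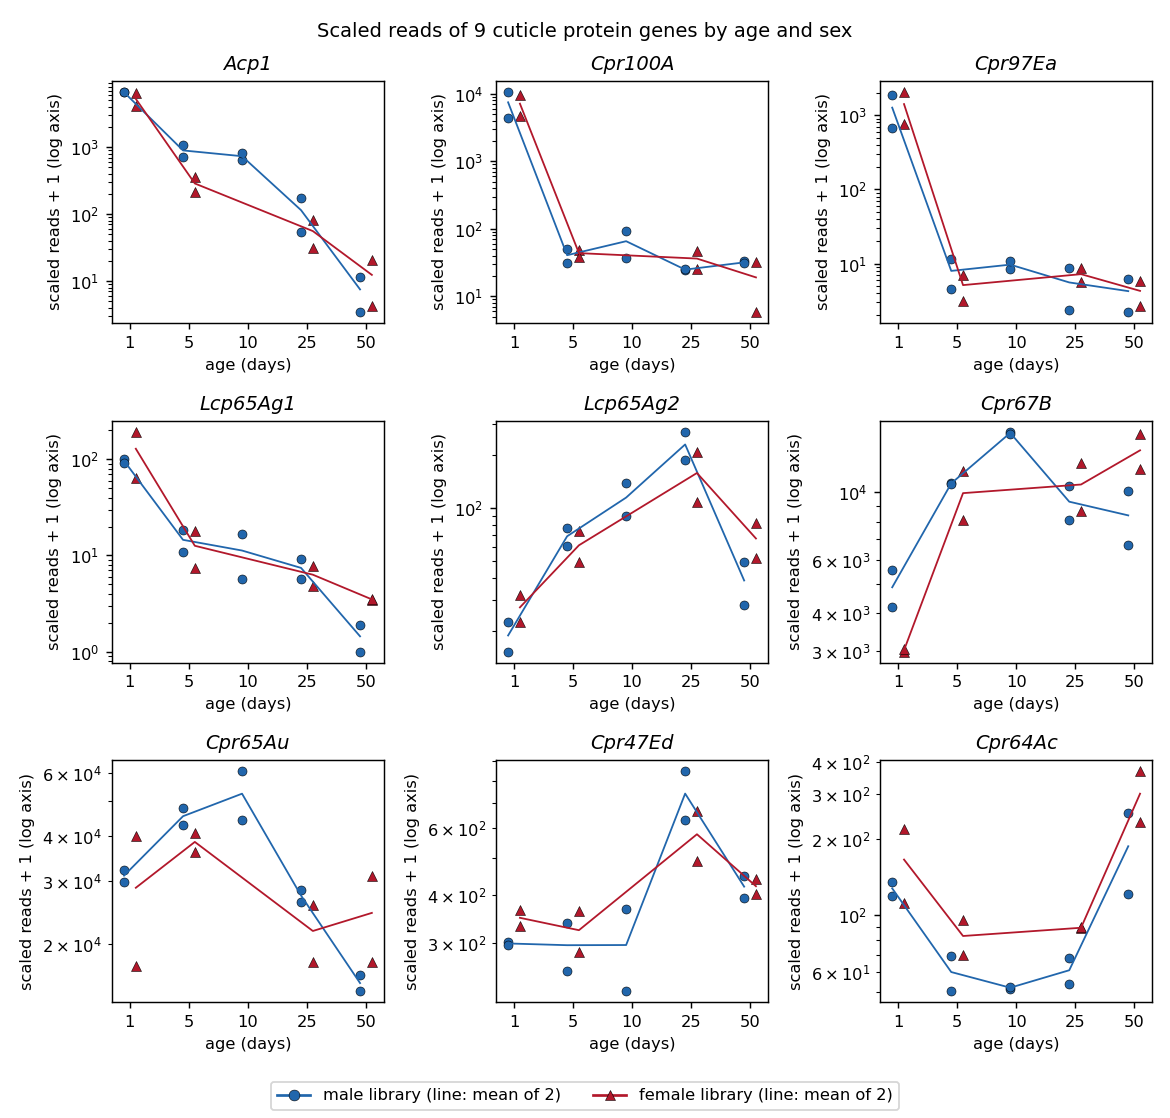
Scaled reads plus 1 (log axis) of 9 members against age in days, with males as blue circles, females as red triangles and lines through the means of 2 libraries. *Acp1* fell at each step, *Cpr100A* and *Cpr97Ea* were high at day 1 alone, *Lcp65Ag2* and *Cpr47Ed* were highest at day 25 and *Cpr64Ac* at day 50.

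The Lcp65A genes on 3L went separate ways although they lie side by side. *Lcp65Ag1* (from 6134697 to 6135274) held 101, 90.8, 194 and 62.4 at day 1 and 17.3, 9.75, 6.41 and 16.8 at day 5, a change of -3.03 ± 0.53. *Lcp65Ag2* (from 6132990 to 6133593) held 14.2, 21.4, 30.8 and 21.5 at day 1 and 59.7, 76.3, 48.0 and 72.6 at day 5, a change of 1.53 ± 0.32. *Lcp65Ag2* rose again to 187, 271, 207 and 108 at day 25 (1.52 ± 0.32) and fell to 27.0 to 81.2 at day 50. The third copy, *Lcp65Ag3*, stayed between 14.9 and 23.1 in every library up to day 25 and was called in no interval. The 3 genes are near-identical copies, and reads that match more than a single copy may have been split or dropped in the counting, so their separate levels are uncertain.

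Genes that make and tan the cuticle were described beside its proteins. Of 15 genes of chitin synthesis and organisation, 12 fell between day 1 and day 5 and none rose by limma, with a median log2 change of -2.42. They included *verm* (-5.38 ± 0.24) and *serp* (-5.95 ± 0.37), which encode chitin deacetylases, the chitinase *Cht5* (-5.11 ± 0.53) and the chitin synthase *kkv* (-2.92 ± 0.37). Of 16 tanning genes, 9 fell and none rose, among them *e* (-7.09 ± 0.35), which makes the sclerotizing agent NBAD, and *ple* (-2.24 ± 0.15), the tyrosine hydroxylase. Of 13 genes of the apical matrix, 3 rose and 2 fell. Of 12 regulators of cuticle genes, 1 fell and none rose, and that was *Eip74EF* (-0.96 ± 0.17), an ecdysone response gene.

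Markers of other cell types moved in the same interval. All 7 muscle genes fell, with a median log2 change of -3.49, and 5 of 6 hemocyte genes fell, with a median of -1.22. The 3 epidermal markers had 1 fall, in *kkv*, which is also on the chitin list, and a median of 0.27. Of the other markers, 2 of 8 retina genes, 2 of 5 fat body genes and 1 of 7 genes of the third antennal segment fell, 1 fat body gene rose, and none of 5 neuronal or 3 support cell genes was called. The part of these in the falls of the cuticle genes was not tested.

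The libraries of day 1 were not alike. *Cpr97Ea* was 2.82 times as high in the male library CT02 as in CT01, and 2.67 times as high in the female library CT04 as in CT03. The ratios were 2.45 and 2.08 for *Cpr100A*, 2.65 and 2.19 for *Cpr97Eb* and 2.96 and 1.71 for *Cpr76Bc*. These 4 of 40 members exceeded 1.5 in both sexes, as did 251 of 10327 genes with the same minimum, and none was below the inverse of 1.5 in both. *Acp1* had ratios of 1.02 and 1.58 and *Cpr65Au* of 0.93 and 0.43. The summed muscle genes were also higher in CT02 and CT04, at 82403 and 71741 against 58822 and 50544. So were those of chitin synthesis and organisation, at 27186 and 23838 against 17757 and 15812. The summed tanning genes were higher in CT02 (30509 against 23938) and lower in CT04 (36221 against 54376.5). Those of the apical matrix were 11452 and 11057 against 11356 and 10036. The labels do not tie CT02 to CT04.

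Between day 5 and day 25 calls went both ways. By limma 9 members rose and 8 fell, and among all genes 8.76% rose and 3.93% fell. All 9 that rose had a mean of 50 or more. *Cpr47Ed* held 337, 252, 363 and 282 at day 5 and 631, 847, 492 and 663 at day 25, a change of 1.08 ± 0.18 (limma adjusted p = 0.0041). *Cpr49Af* rose by 1.10 ± 0.21, *Cpr66D*, which encodes a protein of the corneal lens, by 0.90 ± 0.19, *Cpr35B* by 0.79 ± 0.20 and *Cpr65Ay* by 0.87 ± 0.32. In each of these 5 genes all libraries of day 25 lay above those of day 5. *TwdlD*, the gene of the Tweedle mutant, rose by 1.17 ± 0.34, from 52.3 to 114 at day 5 to 199, 302, 112 and 216 at day 25. *TwdlU* (0.68 ± 0.22) and *Cpr11B* (0.71 ± 0.24) completed the rises with *Lcp65Ag2*.

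These rises rested on some libraries more than on others. In *Cpr47Ed*, *Cpr49Af*, *Cpr35B*, *Cpr66D*, *Cpr65Ay*, *TwdlD*, *TwdlU* and *Lcp65Ag2* the male library CT12, which held 6414483 reads, was the highest of all 18. Without it 4 members rose and 4 fell, and without the female library CT14 also 4 rose and 4 fell. *Cpr47Ed*, *Cpr49Af*, *Cpr66D* and *Lcp65Ag2* were called in every fit that left out 1 library.

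Among the falls, *Cpr65Au* went from 36137 to 47784 at day 5 to 17768 to 28280 at day 25, a change of -0.79 ± 0.24 (limma adjusted p = 0.042). *Cpr62Bb* held 1856, 2139, 1085 and 1326 at day 5 and 917, 859, 1012 and 820 at day 25 (-0.78 ± 0.15). *Cpr47Ef* fell from 64.7 to 81.1 at day 5 to 10.9 to 17.0 at day 25 (-2.33 ± 0.34), after 124 to 156 at day 1. That earlier change was -0.96 ± 0.34, and its call was lost in each of the 8 fits that left out a library of day 1 or day 5. *Cpr30F* and *TwdlF*, which had risen by day 5, fell by 1.02 and 1.52. No library of day 25 overlapped with one of day 5 in any of these 5 genes. The fall of *Cpr65Au* was not called without CT08, without CT12 or without CT14, that of *Cpr30F* in 6 of the 18 fits that left out 1 library (CT12 and CT14 among them), that of *TwdlF* without CT07 or without CT12, and that of *Ccp84Ab* (-1.98) in 6.

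Few marker genes of other cell types were called in this interval. Of 7 muscle genes 3 fell and 1 rose, of the 5 neuronal genes 1 fell, and of 8 retina genes 1 rose, with a median log2 change of 1.70 for the retina genes. The fat body genes had a median of 1.22 with no call. Of the tanning genes 6 fell and 1 rose, and of the chitin genes 2 fell and 1 rose.

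Day 10, which lies between these ages, was sampled in males alone. Between day 5 and day 10 limma called none of the 93 members and 0% of all genes, with 9 members at an unadjusted p below 0.05. The counts of members called by edgeR and DESeq2 were also 0. Between day 10 and day 25, 26 members rose and 8 fell in males, where 16.8% of all genes rose and 12.2% fell. The calls of members were lost without CT12, and the share of all genes called without it is not given here. With all libraries edgeR called 25 rises and 6 falls, and DESeq2 26 and 6. The values of *Cpr47Ed* were 367 and 223 at day 10 and 631 and 847 at day 25.

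**Figure D3:**
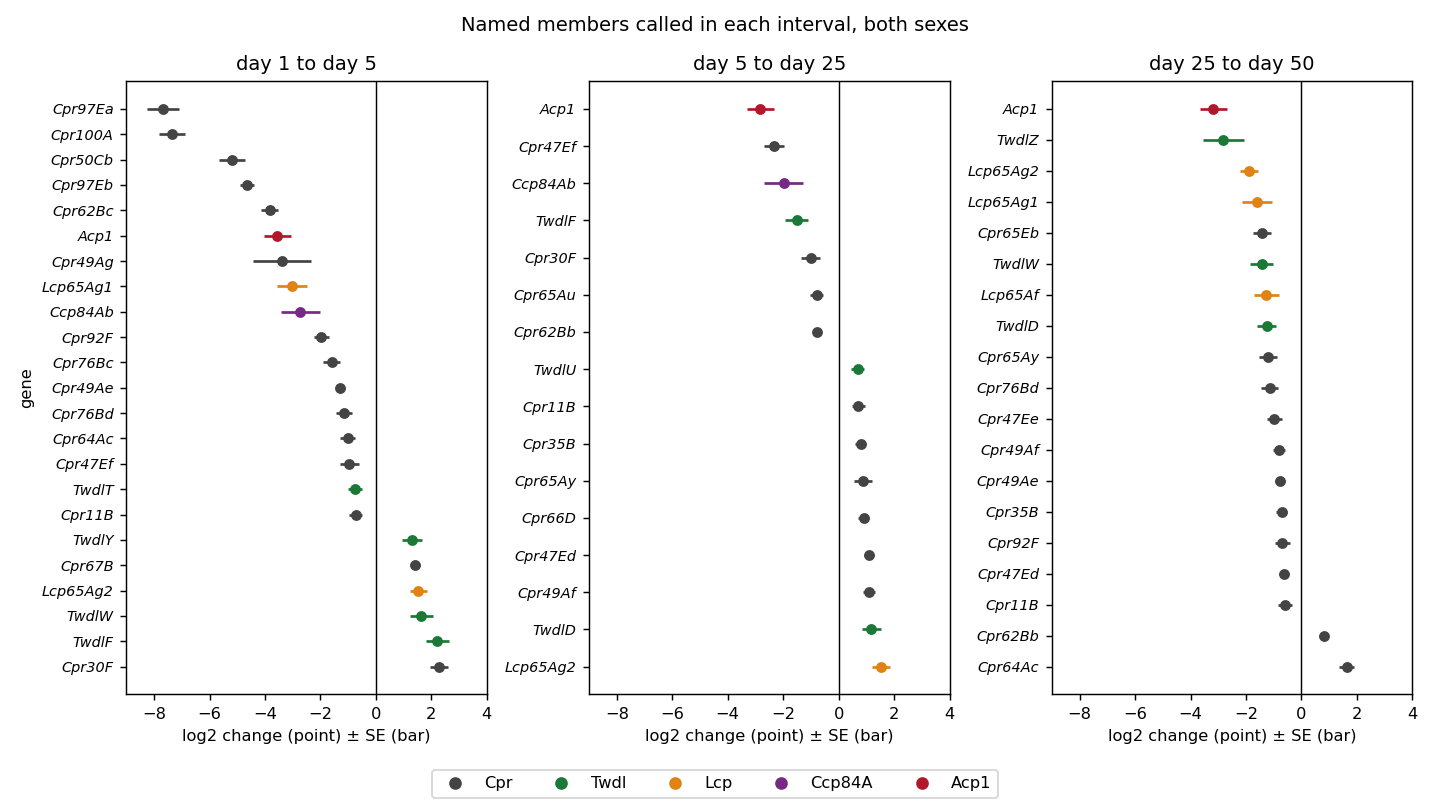
Log2 change of the named members that were called in both sexes together, with a panel each for the changes from day 1 to 5, day 5 to 25 and day 25 to 50 (points, with bars of 1 SE), coloured by family. Falls of the first interval reach -7.67 in *Cpr97Ea*, those of the second -2.82 and of the third -3.19, both in *Acp1*.

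From day 25 to day 50 most calls were falls. By limma 26 members fell and 2 rose, and among all genes 17.4% fell and 9.78% rose. The median log2 change of the members was -0.54, against -0.04 for all genes. Falls were found in 19 Cpr, 3 Lcp and 3 Twdl genes and in *Acp1*, and 7 of the members that fell had risen between day 5 and day 25. Both intervals share the libraries of day 25, so high values there enter a rise and a fall alike. The share of all genes with both calls is not given here. Without CT16 and CT18, which leaves 1 male and 1 female library at day 50, fewer members fell, all of them among the 26. The share of all genes in that fit is not given here, so the loss cannot be read as particular to the members. Without CT14 15 fell and without CT12 17.

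*Cpr47Ed* returned to 447, 393, 441 and 401 at day 50 (-0.62 ± 0.18) and *Cpr49Af* to 121 to 185 (-0.80 ± 0.21), and in both all libraries of day 50 lay below those of day 25. *Cpr35B* fell by 0.71 and *Cpr65Ay* by 1.21 on the log2 scale. *TwdlD* fell to 66.8 to 95.6 (-1.26 ± 0.34). *TwdlZ* went from 1.55, 27.2, 4.27 and 30.2 at day 25 to 0 to 1.62 at day 50, and the libraries of the 2 ages overlapped. Without CT16 and CT18 none of these 6 was called, with log2 changes of -0.54 for *Cpr47Ed*, -0.72 for *Cpr49Af*, -0.57 for *Cpr35B*, -0.76 for *Cpr65Ay*, -1.07 for *TwdlD* and -2.69 for *TwdlZ*. Leaving out 1 library ended the call of *Cpr47Ed* in 3 fits and of *Cpr35B* in 2. Members that were called also without them included *Acp1*, *Lcp65Ag1*, *Lcp65Ag2* (-1.94), *Cpr49Ae* (-0.72), *Cpr65Eb* (-1.30) and *TwdlW* (-1.55). The calls of *Lcp65Ag1* and *TwdlW* were each lost in 1 fit, without CT12 and without CT14.

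Markers of other cell types moved in the same interval. Of 8 retina genes 5 rose (median log2 change 2.18), of 6 hemocyte genes 4 rose (0.76) and of 5 fat body genes 2 rose (0.48). Of the 3 epidermal markers 1 fell, with a median of -0.45. Without CT16 and CT18 none of the retina genes, 1 hemocyte gene, 2 fat body genes and no epidermal marker was called, and the medians were 1.51, 0.92, 0.02 and -0.44. Of the 15 chitin genes 6 fell and none rose by limma, and 3 fell without the 2 libraries. Of the tanning genes 2 rose and 2 fell, and of the matrix genes 3 fell. The part of these in the changes of the cuticle genes was not tested.

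*Cpr64Ac* and *Cpr62Bb* rose. *Cpr64Ac* (3L from 4211964 to 4212915) held 52.9 and 66.7 in males and 88.0 and 88.7 in females of day 25, and 120, 251, 231 and 367 at day 50. The change was 1.62 ± 0.28 (limma adjusted p = 0.0028), and 1.19 without CT16 and CT18. It lies within the span of *CG43367* on the opposite strand. Since the libraries do not keep the strand, reads of the 2 genes could not be told apart where exons overlap, which was not examined. *Cpr62Bb* held 1288, 1485, 1832 and 1709 at day 50, a rise of 0.80 ± 0.15 that reversed its earlier fall, and 0.77 without the 2 libraries. Both genes were called in each sex tested apart, with CT16 taken as male and CT18 as female as labelled. Without these 2 libraries neither was called in either sex, with changes of 1.00 in males and 1.38 in females for *Cpr64Ac* and of 0.54 and 1.01 for *Cpr62Bb*.

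Over the whole span from day 1 to day 50, 29 members fell and 9 rose, where 12.8% of all genes fell and 9.21% rose. Without CT16 and CT18 the counts were 21 and 8. The falls comprised 25 Cpr genes, *Acp1*, *Lcp65Ag1*, *Ccp84Ab* and *TwdlZ*. *Acp1* had the largest, at -9.57 ± 0.49, followed by *Cpr100A* at -8.34 ± 0.46, *Cpr97Ea* at -8.27 ± 0.58 and *Lcp65Ag1* at -5.57 ± 0.53. Without the 2 libraries these were -10.57, -8.93, -8.36 and -5.80. The fall of *TwdlZ* was not called without them or in 7 of the 18 fits that left out 1 library. The rises comprised 5 Twdl genes (*TwdlB*, *TwdlC*, *TwdlG*, *TwdlU* and *TwdlY*, at 0.69 to 2.09), 3 Cpr genes and *Lcp65Ag2* (1.15 ± 0.32). Among the rises, *TwdlC* and *Cpr64Ac* were not called without the 2 libraries, and leaving out 1 library ended the call of *Cpr64Ac* in 13 fits, of *TwdlG* in 6, of *Cpr30F* in 4 and of *TwdlC* in 2. *TwdlB* stood at 0 to 12.3 scaled reads in all libraries. The summed level of the Twdl genes was 662 ± 128 (SD, n = 4) at day 1, 848 ± 114.8 at day 5, 1010 ± 167 at day 25 and 758 ± 111 at day 50, where it was 854 without CT16 and CT18 (n = 2).

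Of the 93 members, 50 were called in at least 1 of the 3 intervals and 43 in none, where 41.8% of all tested genes were called in at least 1. Of the 40 with a mean of 50 or more, 29 were called, as were 44.4% of all genes with that mean. The most frequent courses were a fall from day 25 alone (13 members) and a fall from day 1 alone (10). A rise to day 25 followed by a fall was found in 5 that had not changed before. The shares of all genes with these courses are not given here, so the counts of courses cannot be read as particular to the members. A rise to day 25 and a fall from it also share the libraries of day 25. The counts of these courses and of members called in at least 1 interval are given with CT16 and CT18 only. *Cpr72Ec* and *Cpr73D* were among the 12 Cpr genes with the highest mean and were called in no interval. *Cpr73D* held 204 to 517 scaled reads over all libraries.

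The remaining named families were close to the minimum. *Edg84A* and *Edg91*, named for their response to ecdysone, held at most 18.9 and 27.9 scaled reads, and *Pcp*, a pupal cuticle gene inside an intron of *Gart*, at most 19.5. None of the 3 was called in any of the 3 intervals.

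The sexes differed in few members. At day 1 limma called no member and 0.0477% of all genes, with 7 members at an unadjusted p below 0.05. edgeR also called none, and DESeq2 called *Cpr12A*, lower in males. Over days 5 and 25 together 3 members were lower in males and none higher, where 1.97% of all genes were lower.

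*Cpr47Ee* differed most. At day 25 it held 673 and 577 scaled reads in females and 91.7 and 35.4 in males, and at day 5 it held 165 and 268 in females and 107 and 149 in males. The female libraries lay above the male ones at both ages, with a log2 difference of -2.08 ± 0.27 for males minus females (limma adjusted p = 0.0010). At day 1 (261 and 287 in males, 239 and 184 in females) and at day 50 (94.4 and 75.6 against 128 and 90.6) the difference was 0.38 ± 0.38 and -0.34 ± 0.38, the latter with CT16 and CT18 as labelled and -0.43 without them. The 2 other genes were *Cpr11B* (-0.89 ± 0.24, limma adjusted p = 0.075) and *Cpr49Ae* (-0.71 ± 0.17, limma adjusted p = 0.045). *Cpr11B* was not called in 10 of the 18 fits that left out 1 library, and *Cpr49Ae* in 5, whereas *Cpr47Ee* was called in all of them. DESeq2 also called *Twdlalpha* lower in males (-0.98, DESeq2 adjusted p = 0.028), with a limma adjusted p of 0.12. *Cpr11B* lies within *hwt* on the opposite strand.

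Whether the ages changed the sexes differently was tested as the difference between the male and the female change. By limma it was called in none of the 93 members in any of the 4 comparisons, and in 0% of all genes. Between 4 and 9 members had an unadjusted p below 0.05. edgeR called none either. DESeq2 called *Cpr47Ee* between days 5 and 25 and between days 25 and 50, and *Cpr67B* between days 1 and 50.

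**Figure D4:**
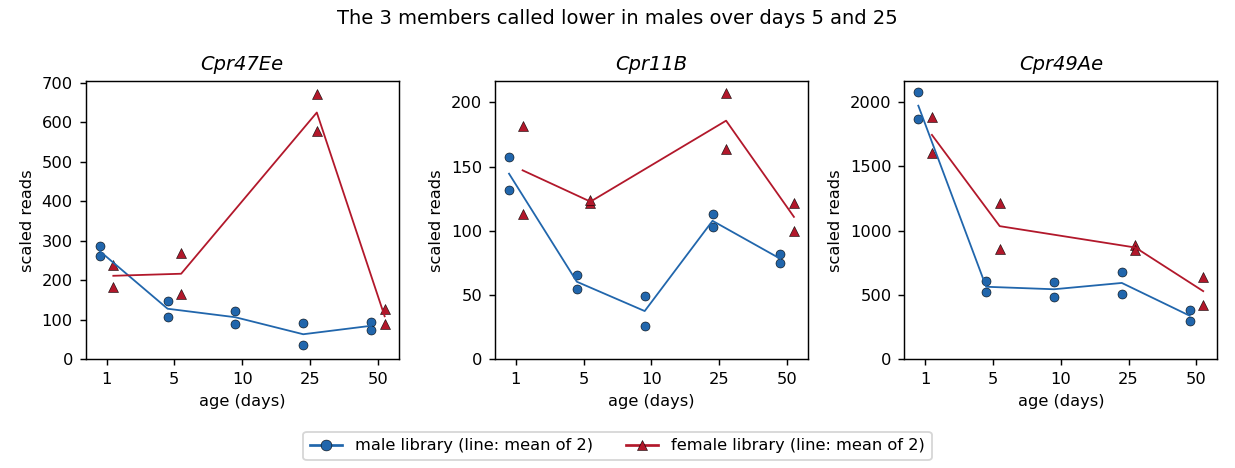
Scaled reads of the 3 members called lower in males over days 5 and 25, against age in days, with males as blue circles, females as red triangles and lines through the means of 2 libraries. *Cpr47Ee* stands at 673 and 577 in females of day 25, above every other library.

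*Cpr72Ec* and *Cpr49Ag* were high in single libraries. *Cpr72Ec*, which encodes a protein of the corneal lens, held 904 scaled reads in the male library CT06 of day 5, 1546 in CT09 of day 10 and 661 in CT15 of day 50, and 133 to 419 in the other 15. Library mates were at 133 (CT05), 152 (CT10) and 258 (CT16), and the gene was called in no interval. *Cpr49Ag* held 229 in CT06 and 71.8 in CT09, against 2.60 to 4.27 in the other libraries of day 5 and 7.92 in CT10. Its fall from day 1 to day 5 was -3.39 ± 1.03, and it was -4.89 without CT06 and -1.89 without its library mate CT05. The call was lost without CT05, without CT02 and by DESeq2. The rhodopsin gene *ninaE* held 77899 in CT06, 52509 in CT09 and 79450 in CT15, and also 64903 in CT16 and 43199 in CT18. In the other 13 libraries it held 145 to 13262. *Cpr72Ec* in CT16 and CT18 lay within the 133 to 419 given above. The log2 change of *Cpr49Ag* from day 1 to day 50 was -3.97. It was -4.57 without CT18 and -3.38 without its library mate CT17, so *Cpr49Ag* was higher in CT18 than in CT17. The 8 retina genes include *ninaE*, and their sum in CT06 was 101919. Their part in these values was not tested. *Cpr66D*, the other lens gene, held 163 in CT06, its lowest value.

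**Figure D5:**
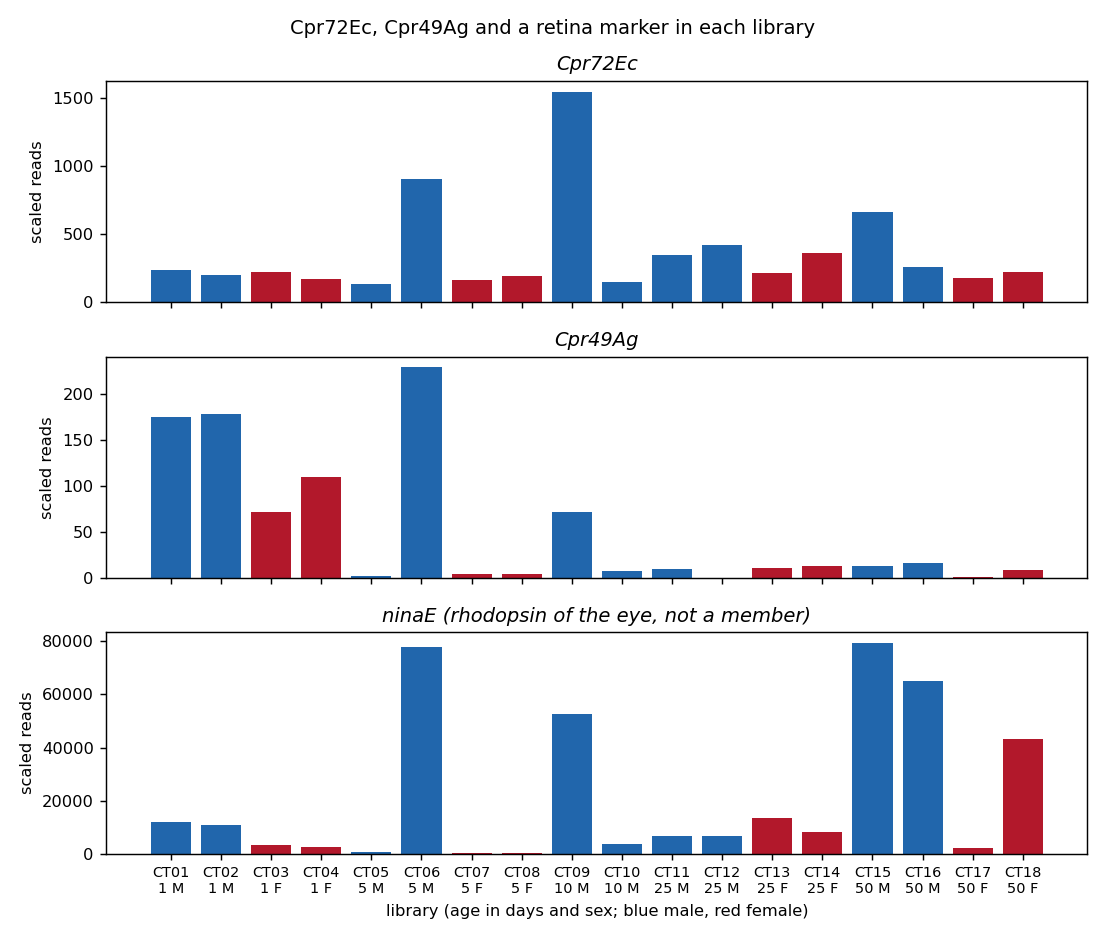
Scaled reads of *Cpr72Ec*, *Cpr49Ag* and the rhodopsin gene *ninaE* in each of the 18 libraries, labelled by age in days and sex (blue male, red female). The bars of CT06 and CT09 are raised in all 3 panels, and those of CT15 in *Cpr72Ec* and *ninaE*.

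Many members are neighbours in the genome. Of the 119, 89 lie within 20 kb of another member, in 17 groups of up to 14 genes, and 30 lie alone, by the positions of the dm6 annotation. Arm 3L holds 42 of them, 3R 34, 2R 27, and 2L and X 8 each. The group of 14 on 3L holds *Cpr65Au* and *Cpr65Ay* with the Lcp65A genes. It thus includes the highest member, the fall of *Lcp65Ag1* and the rises of *Lcp65Ag2*. In the group of 3 that holds *Cpr62Bb* and *Cpr62Bc*, *Cpr62Bc* was 14.8-fold lower at day 5 than at day 1, by its means, whereas *Cpr62Bb* was not called until day 25. The spans of 17 tested members overlap the span of another annotated gene, most of them on the opposite strand. Spans include introns, and overlap of exons was not examined. Where exons overlap, reads of such pairs cannot be told apart in these unstranded libraries. *TwdlT* lies within *RYa-R* on the same strand, and *Cpr65Au* overlaps the antisense RNA CR46005.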

How the data were processed

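RNA of the second antennal segment was sequenced in 18 libraries, 2 for each of 9 groups of age and sex. Per the labels and methods, the authors used the SMART-Seq v4 and Nextera XT kits, which do not keep the strand, aligned paired reads to dm6 in Partek Flow, counted them per gene with HTSeq and scaled them with DESeq2 (versions not given in the sources used here). The deposited signal values are these counts after division by a size factor of each library, from which whole reads could be recovered (100% of values within a tolerance of 0.01). The deposited table also holds the authors' log2 fold changes with standard errors, p-values and a score (the Wald statistic), none of which was used. Reads in genes numbered 5815182 to 14315927 per library, so genes near the minimum vary strongly by counting alone.

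Values were taken as log2 of the value plus 1, which understates changes of low genes, and fitted with limma 3.58.1 (trend) in R 4.3.3, with 1 coefficient for each of the 9 groups. Genes needed 10 in at least 2 libraries. Changes between ages are averages over the 2 sexes, and p-values were adjusted over all 14663 genes (Benjamini-Hochberg). Calls needed an adjusted p below 0.1 and a fold above 1.5. All p-values of single genes are limma's unless another tool is named. The fit was tested on simulated data.

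The members and the lists of chitin, tanning, matrix, regulator and marker genes were chosen with earlier results of these data known, and the lists come from textbook knowledge, with 5 of the 18 matrix symbols and 1 of the 6 fat body symbols not matched. Genes named with values were drawn from the tested members outside the Cpr group, the 12 Cpr genes with the highest mean and members that differed between the sexes. They were also drawn from Cpr genes with a mean of 50 or more among the 10 largest called rises or falls of a comparison. Not all of these are described. *Cpr78Cc* is named for its flagged libraries alone. *Cpr12A*, the sex transcripts, *ninaE* and the day 1 ratios were chosen once their values were known. The results were recomputed with edgeR 4.0.16 and with DESeq2 1.42.0 on whole reads, and with other pseudocounts, filters and limits, TMM scaling, age and sex as added terms, and libraries left out. With a library left out, the remaining library of its group was assumed to vary like the others. The shares of all genes called in such fits are not given here. Lower counts of members in them therefore cannot be read as particular to the members. Positions come from the BDGP6 annotation of dm6. Python 3.11.15 and matplotlib 3.10.9 were used for tables and figures. No sequences are printed, since none were used here.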

Additional observations from a re-analysis of the deposited data

Results flagged for a closer look

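Among the 40 members with a mean of 50 or more and the 4 ages with 4 libraries, 12 of 160 groups held a library far from the other 3 by Dixon's criterion, where chance flags about 1 in 20. At day 1 these were *Acp1* at 4081 scaled reads in the female library CT03 (6469 to 6675 in the others), *Cpr30F* at 52.4 in the male library CT02 (15.1 to 19.6) and *Cpr65Ay* at 44.5 in the male library CT01 (81.2 to 85.1). At day 5 they were *Cpr49Ag* at 229 and *Cpr72Ec* at 904 in the male library CT06 (2.60 to 4.27 and 133 to 192 in the others), *Cpr76Bd* at 48.8 in the same library (70.5 to 71.0) and *Cpr78Cc* at 185 in the female library CT07 (107 to 118). At day 25 the female library CT13 held 46.1 of *Cpr100A* (23.3 to 24.5) and 143 of *TwdlT* (70.0 to 76.4). At day 50 the female library CT17 held 4.87 of *Cpr100A* (29.9 to 31.9), and the male library CT15 held 661 of *Cpr72Ec* (180 to 258) and 234 of *Cpr78Cc* (106 to 122).

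A difference between the male and the female change was called by DESeq2 in a pair of genes. For *Cpr47Ee* the male change was lower than the female change (-2.55, SE 0.53, adjusted p = 0.0091) from day 5 to day 25, and higher by 2.95 (SE 0.53, adjusted p = 0.00026) from day 25 to day 50, on the log2 scale. With limma the values were -2.69 and 3.08, with adjusted p of 0.81 and 0.23. For *Cpr67B* the difference from day 1 to day 50 was -1.40 (SE 0.37, adjusted p = 0.072), and limma gave -1.40 with an adjusted p of 0.42. The last 2 of these 3 differences include CT16 and CT18.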

How the results depend on the processing

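No paired analysis was possible because GEO's labels give the libraries no replicate numbers, and the replicates numbered in the study's supplement are not tied there to the library names. Counts of called members changed as follows. With genes limited to a mean of 50 or more, which leaves 40 members, rises from day 1 to day 5 numbered 3, falls from day 5 to day 25 numbered 5, falls from day 25 to day 50 numbered 13, falls from day 1 to day 50 numbered 15 and rises in males from day 10 to day 25 numbered 16. With the limit on adjusted p at 0.05, falls from day 5 to day 25 numbered 5, and males from day 10 to day 25 had 16 rises and 5 falls. Rises from day 25 to day 50 numbered 4 by edgeR and 5 by DESeq2. Without CT16 and CT18, falls from day 25 to day 50 numbered 9 and 1 member (*Acp1*) was higher in males over days 5 and 25. DESeq2 called 1 member (*Cpr12A*) lower in males at day 1. With each library left out in turn, the counts ran from 4 to 14 rises and 4 to 8 falls from day 5 to day 25, from 2 to 4 rises and 15 to 28 falls from day 25 to day 50, from 0 to 29 rises and 0 to 9 falls in males from day 10 to day 25, from 0 to 1 member higher in males at day 1 and from 1 to 4 lower in males over days 5 and 25. From day 1 to day 5 they ran from 6 to 11 rises and 15 to 20 falls. Of 88 called changes of named genes, none turned its direction in 948 refits under other settings or in 1584 that left out 1 library, and the call was lost in 46 and 139 of these. Apart from the counts just given, the cause was not tested. TMM scaling differed from the authors' by factors of 0.982 to 1.020 and moved no count by over 1.5 times. The number of reads limits the precision of members near the minimum most.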
